A study of Mus musculus with 24 samples.

Results

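The transcripts of 10 genes for making bile acids and for their feedback control were measured in mouse liver, by 12 microarray probes: Cyp7a1, Cyp8b1, Cyp27a1, Cyp7b1, Akr1d1, Baat, Slc27a5, Hsd3b7, Nr1h4 and Nr0b2. They were taken as all probes that carry these gene names in the scanner files, 12 of the 41174 probes on the array, and all 12 probes passed the filter on dim signal, so all 10 genes were among the 18967 genes tested. The samples were livers of C57Bl/6J mice fed freely in a 12 h light and 12 h dark cycle, killed at Zeitgeber times (ZT, hours after lights on) 0, 4, 8, 12, 16 and 20, at 10 and 20 weeks of age. One group, Mop3fxfx (floxed below), carries floxed alleles of Mop3, the clock gene also called Arntl or Bmal1. The other, Mop3fxfxCreAlb (Cre below), carries the same alleles and a Cre recombinase under the albumin promoter, which is active in hepatocytes. Which other liver cells keep the gene is not given by the labels and was not tested. Each array held pooled RNA of at least 3 mice, with 1 array for each genotype, age and time, hence 12 arrays a genotype. With no repeat of any one age and time, the tests rest on the spread over times and ages.

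Bile acids are made from cholesterol in hepatocytes. The classic route begins with Cyp7a1, the rate-limiting 7-alpha-hydroxylase, and the alternative route with Cyp27a1, the mitochondrial sterol hydroxylase, and Cyp7b1, the oxysterol 7-alpha-hydroxylase. Hsd3b7 and Akr1d1 modify the sterol rings, Cyp8b1 adds the 12-alpha-hydroxyl group that sets the balance of cholic acid to muricholic acids, and Slc27a5 and Baat join the product to coenzyme A and then to taurine. Bile acids bind the nuclear receptor FXR (Nr1h4), which induces SHP (Nr0b2), a repressor of Cyp7a1 and Cyp8b1, and REV-ERB, DBP and other clock factors are known to act on Cyp7a1 as well.

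Every level here is a log2 ratio of Cy5 over Cy3 on one array, read as liver sample over a common reference pool of 10-week livers of both genotypes. This goes against the labels, which put the sample in Cy3 and the reference in Cy5. It was read this way because within slides the Cy5 signal varied more between arrays than the Cy3 signal for 89.3% of the 27847 kept probes, and for 8 of the 9 member probes that were never saturated. Arntl then peaked at ZT21.8 in floxed livers (ZT9.8 under the labels' reading), and its message is known to be highest near the end of the dark phase. Taking the labels' reading would turn the sign of each level and difference below and move each peak by 12 h, and would leave amplitudes, p-values and total counts of calls of these ratios as they are. Values from the Cy5 channel alone rest on this reading: under the labels' reading that channel is the reference, and they would be no genotype difference of the samples. The Arntl rhythm had an amplitude (mean to peak, log2) of 1.69 ± 0.17 (SE, n = 12) in floxed and 0.22 ± 0.17 in Cre livers, and the rhythms differed (limma, adjusted p = 0.03).

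Facts of the arrays that touch the results are these. The 24 arrays lay on 7 slides. The 20-week floxed arrays were on slides 4 and 5 and the 20-week Cre arrays on slides 5 and 6, whereas slides 1, 2 and 3 held both genotypes at 10 weeks and slide 7 the 10-week ZT16 Cre array alone. The 4 arrays of slide 6 had median Cy5 signals of 83.5 to 109, against 142.6 to 245.8 on the other 20-week arrays. No slide held both ages, so age and slide cannot be told apart. All 9 measured hepatocyte markers of 10 listed were well above background on all 24 arrays. The hepatocyte list had 1 called gene, Hpd, lower, but 7 of its 9 genes reached the scanner limit in Cy5 on some arrays, so differences among them are clipped. In Cre livers 2 of 8 cholangiocyte markers were higher (Sox9 by 1.06 ± 0.12, with 3 probes from 0.07 to 1.11, and Spp1 by 1.39 ± 0.17) and 1 lower, with a mean level of the list from -0.44 to 0.01 in floxed and from -0.16 to 0.19 in Cre livers. Of 5 adipose markers 2 were lower (Cidec by -2.26 ± 0.26 and Cfd by -3.05 ± 0.36), with list means from 0.05 to 1.29 in floxed and from -1.01 to 0.02 in Cre livers. Adipoq (-0.14 ± 0.12), Plin1 (-0.04 ± 0.04) and Lep (0 ± 0.03) were not called, so the list means follow Cidec and Cfd. Only 1 of the 5 was well above background in Cy5 on all 24 arrays. Of 8 stellate cell markers 3 were higher, of 6 endothelial markers 1 was higher, of 8 macrophage markers and 1 measured pancreas marker 0 were called by limma (1 at an unadjusted p below 0.05, a macrophage marker), and of 3 measured enterocyte markers 2 were lower, one of them the bile acid transporter Slc10a2 (-1.22 ± 0.24). Across all genes 12% were called higher in Cre livers and 12.1% lower. The part of these cell types in the results below was not tested. In pooled tissue, fewer cells of a type and less RNA per cell cannot be told apart.

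Shown first are the probes that read the rate-limiting enzyme and the FXR-induced repressor, as the array's designed 60-base oligos, since results for Cyp7a1 differ between its probes (this is the dimmer one).
Cyp7a1 probe: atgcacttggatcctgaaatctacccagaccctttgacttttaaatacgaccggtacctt
Nr0b2 probe: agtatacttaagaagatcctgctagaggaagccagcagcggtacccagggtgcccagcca

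The 250 bases before the start site are given for the 2 lower members with no saturated probe and an entry in the promoter table, and for Nr0b2 (RefSeq, GRCm38.p6, along the gene's strand). Capitals mark the E-box CACGTG, the site that Arntl and its partner CLOCK are known to bind, and AGGTCA or its reverse complement TGACCT, the half-site of many nuclear receptors.
Nr0b2, chr4:133553126-133553375, plus strand: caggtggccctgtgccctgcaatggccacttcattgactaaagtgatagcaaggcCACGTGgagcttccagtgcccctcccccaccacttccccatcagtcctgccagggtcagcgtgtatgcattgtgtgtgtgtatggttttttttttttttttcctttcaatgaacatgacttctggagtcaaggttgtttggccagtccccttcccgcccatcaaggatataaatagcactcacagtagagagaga
Akr1d1, chr6:37529923-37530172, plus strand: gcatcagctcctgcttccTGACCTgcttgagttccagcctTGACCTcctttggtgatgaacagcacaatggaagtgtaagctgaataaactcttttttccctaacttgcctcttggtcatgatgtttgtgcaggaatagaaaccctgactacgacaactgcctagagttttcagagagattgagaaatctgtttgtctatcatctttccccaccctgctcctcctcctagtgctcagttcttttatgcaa
Nr1h4, chr10:89506659-89506908, minus strand: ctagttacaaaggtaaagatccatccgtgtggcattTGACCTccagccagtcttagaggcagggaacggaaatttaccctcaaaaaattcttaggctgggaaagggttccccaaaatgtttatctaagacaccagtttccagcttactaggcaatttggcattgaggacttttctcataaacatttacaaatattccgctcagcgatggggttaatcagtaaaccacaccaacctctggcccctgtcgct

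Promoters of 6 members were in that table. Among them the E-box stood in Nr0b2 alone, with its first base 195 bases before the start, and 6.02% of all 32851 windows of this length held one on either strand. The half-site stood in 2 places in Akr1d1 (232 and 210 bases before the start) and in 1 place in Nr1h4 (214 bases before), against 14% of all windows. The D-box TTANGTAA, a site of DBP-type factors, was in none of the 6 windows and in 2.06% of all. These matches describe letters and show no binding.

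Of the 10 members, 5 differed in mean level between genotypes (called: limma, Benjamini-Hochberg adjusted p below 0.05 over all genes), 1 higher in Cre livers (Cyp7b1) and 4 lower (Akr1d1, Nr1h4, Slc27a5 and Baat). Across all genes, 24% were called, 12% higher and 12.1% lower. The median difference was -0.17 over the members and 0 over all genes. The 5 not called were Cyp7a1, Cyp8b1, Cyp27a1, Hsd3b7 and Nr0b2. Without the 4 arrays of slide 6 the call of Akr1d1 was left (1 member, and 8.79% of all genes), and from the 10-week arrays alone no member was called (0 members, 6 arrays a genotype, and 3.4% of all genes, limma; 1 member at an unadjusted p below 0.05). With median centring in place of loess Akr1d1 was the 1 member called (3.52% of all genes), and from the Cy5 channel alone Akr1d1 (lower) and Cyp7b1 (higher) were called (19.1% of all genes). With each pair of one age and time as a block 6 members were called (26.4% of all genes). A pair below is the floxed and the Cre array of one age and time, of which there were 12.

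**Figure D1:**
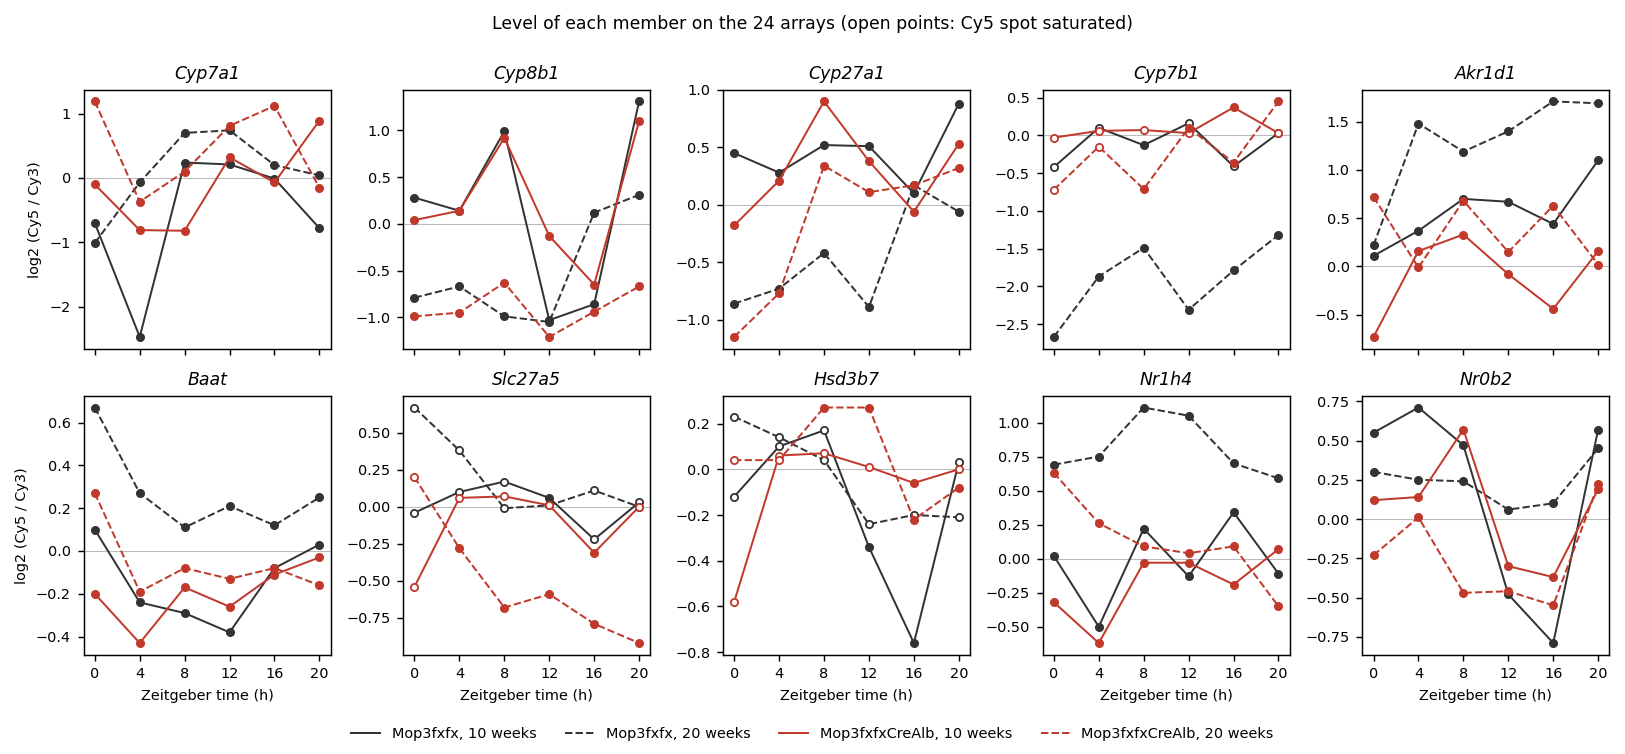
Level of each member as log2 of Cy5 over Cy3 (y axis, scaled per gene; sign turned under the labels' reading of the dyes) against Zeitgeber time in hours, 1 point per array, floxed in black and Cre in red, 10 weeks solid and 20 weeks dashed. Open points have a saturated Cy5 spot; Akr1d1 lies lower in Cre than in floxed livers in 11 of 12 pairs, and 20-week Cyp7b1 lies lower in floxed livers at all 6 times.

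In the classic route, Cyp7a1 ran from -2.47 (ZT4) through a median of -0.36 to 0.24 (ZT8) in 10-week floxed livers and from -0.82 (ZT8) through -0.09 to 0.89 (ZT20) in 10-week Cre livers. At 20 weeks it ran from -1.01 (ZT0) through 0.12 to 0.74 (ZT12) in floxed and from -0.37 (ZT4) through 0.46 to 1.19 (ZT0) in Cre livers. The ranges overlapped at both ages, and the lowest array of each age was floxed. The mean was higher in Cre livers by 0.42 ± 0.22 (SE), which did not pass (limma, adjusted p = 0.19), with Cre higher in 7 of 12 pairs. It was 0.26 without the 10-week ZT4 floxed array (limma, adjusted p = 0.31), 0.19 with median centring (limma, adjusted p = 0.75), and 0.81 and 0.83 with slide and scan day as a fixed block (limma, adjusted p = 0.11 and 0.071). At single times the difference with the smallest p for Cyp7a1 was at ZT0, 1.4 ± 0.54 (limma, p = 0.021, adjusted p = 0.44), which includes the 20-week pair at -1.01 and 1.19, read as 1.31 and 1.82 by the second probe.

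The fitted 24 h rhythm of Cyp7a1 in floxed livers had an amplitude of 0.83 ± 0.22 with its peak at ZT12.7 ± 1 h, near lights off (limma, p = 0.0058, adjusted p = 0.16). In Cre livers the amplitude was 0.54 ± 0.22 with the peak at ZT17.5 ± 1.6 h (limma, adjusted p = 0.63). The difference between the rhythms did not pass either (limma, p = 0.052, adjusted p = 1). The second Cyp7a1 probe, printed above, gave a difference of 0.07 ± 0.18 between genotypes and a floxed amplitude of 0.18 ± 0.18. Both probes were alike at 10 weeks (Pearson r = 0.91 over 12 arrays) and unlike at 20 weeks (r = 0.25 over 12), where the floxed ZT0 array gave -1.01 on the brighter and 1.31 on the dimmer probe. Without that array r was 0.86 over 23 arrays, against 0.7 over all 24.

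**Figure D2:**
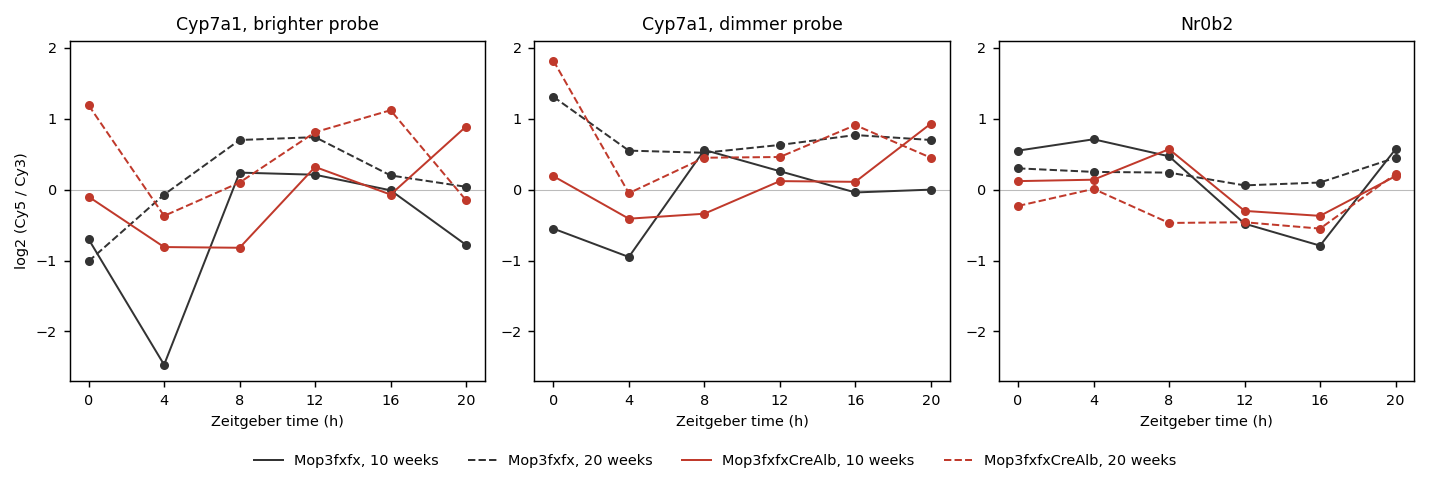
Levels by the brighter and the dimmer Cyp7a1 probe and by the Nr0b2 probe, as log2 of Cy5 over Cy3 (y axis; sign turned under the labels' reading of the dyes) against Zeitgeber time in hours, 1 point per array, floxed in black and Cre in red, 10 weeks solid and 20 weeks dashed. The 20-week floxed ZT0 array is at -1.01 on the brighter and 1.31 on the dimmer Cyp7a1 probe, and Nr0b2 at 10 weeks is lowest at ZT16 in both genotypes.

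Cyp8b1 had a like day course in both genotypes at 10 weeks. In floxed livers it was 0.28, 0.14, 0.99, -1.03, -0.86 and 1.31 at ZT0, 4, 8, 12, 16 and 20, and in Cre livers 0.04, 0.14, 0.92, -0.13, -0.65 and 1.1. It was thus high at ZT8 and ZT20 and low at ZT12 and ZT16 in each. The 4 high arrays were those of slide 1, and the part of slide in this course was not tested. The profiles correlated at r = 0.92 over 6 times, of which 5 shared a slide between genotypes, where the median gene had 0.44. A 24 h curve cannot follow 2 maxima, and its amplitude in floxed livers was 0.46 ± 0.25 (limma, adjusted p = 0.64). At 20 weeks the levels ran from -1.05 through -0.73 to 0.31 in floxed and from -1.21 through -0.94 to -0.63 in Cre livers, and the profiles correlated at 0.38. The mean difference between genotypes was -0.14 ± 0.25 (limma, adjusted p = 0.72).

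Akr1d1, the 5-beta-reductase that gives bile acids their bent ring shape, was lower in Cre livers. At 10 weeks floxed livers ran from 0.11 through a median of 0.56 to 1.1 and Cre livers from -0.73 through 0.04 to 0.33. At 20 weeks floxed livers ran from 0.22 through 1.44 to 1.71 and Cre livers from -0.01 through 0.39 to 0.72. The ranges overlapped at each age, at 20 weeks through the floxed ZT0 array alone, and Cre was lower in 11 of 12 pairs, the exception being ZT0 at 20 weeks. The difference was -0.79 ± 0.16 (limma, adjusted p = 0.0015). It was -0.66 ± 0.23 at 10 and -0.92 ± 0.23 at 20 weeks, and a change of the difference with age was not detected (limma, interaction -0.26 ± 0.32, adjusted p = 0.66).

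Within each slide that held both genotypes Akr1d1 was again lower in Cre livers, by -0.65, -0.48 and -0.84 on slides 1, 2 and 3, where times were matched, and by -1.35 on slide 5, where they were not. With slide as a fixed block the difference was -0.79 (limma, adjusted p = 0.023), and from the Cy5 channel alone -0.76 (limma, adjusted p = 0.0026). Its call was lost in 1 of 44 alternatives, the 10-week arrays alone (-0.66, limma, adjusted p = 0.14). The 44 include, here and below, 24 that leave out 1 array each and a scaling of intensity between arrays. That scaling keeps each ratio as it is, so it could change no call. No 24 h rhythm of Akr1d1 passed (floxed amplitude 0.3 ± 0.16, limma, adjusted p = 0.65).

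**Figure D3:**
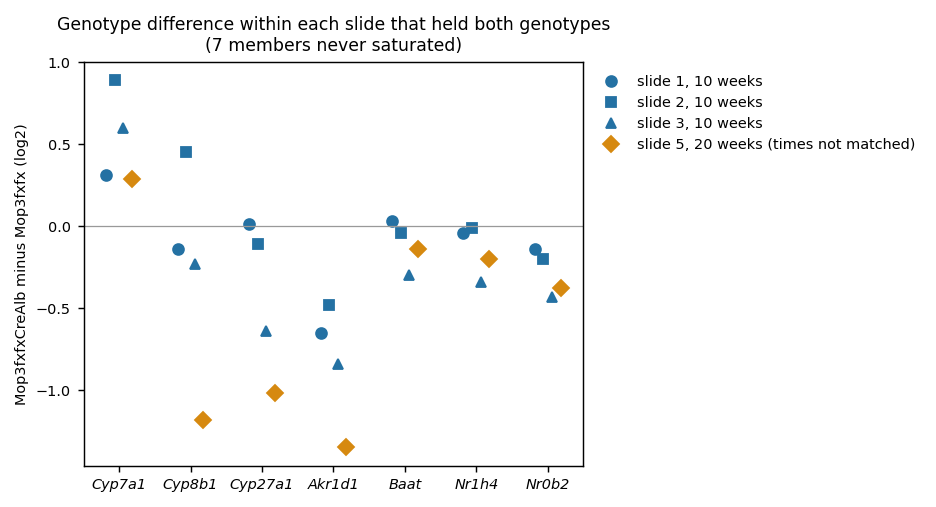
Cre minus floxed difference in log2 (y axis; sign turned under the labels' reading of the dyes) within each of the 4 slides that held both genotypes, for the 7 members with no saturated spot, 1 point per slide. Akr1d1 lies from -1.35 to -0.48 and Nr0b2 from -0.43 to -0.14, below 0 on all 4 slides, while Nr1h4 comes as close to 0 as -0.01.

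Hsd3b7, the 3-beta-hydroxysteroid dehydrogenase of the early ring steps, reached the scanner limit in Cy5 on 10 of 12 floxed arrays and on 7 of the 12 from Cre livers. Its levels, from -0.76 to 0.23 in floxed and from -0.58 to 0.27 in Cre livers, are therefore clipped and give no fold. The fitted difference of these clipped signals was 0.08 ± 0.07 (limma, adjusted p = 0.46).

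In the alternative route, Cyp27a1 did not differ detectably between genotypes, with 0.07 ± 0.17 (limma, adjusted p = 0.8) and Cre lower in 7 of 12 pairs. It ran from 0.1 through 0.48 to 0.88 in 10-week floxed and from -0.18 through 0.3 to 0.9 in 10-week Cre livers, and at 20 weeks from -0.89 through -0.58 to 0.17 and from -1.15 through 0.14 to 0.34. The 20-week difference was 0.3 ± 0.23 (20-week arrays alone: limma, adjusted p = 0.37), with Cre lower in 2 of 6 pairs, and without slide 6 the difference over both ages was -0.23 (limma, adjusted p = 0.47).

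Cyp7b1 was higher in Cre livers at 20 weeks. At 20 weeks it was -2.67, -1.87, -1.49, -2.31, -1.79 and -1.32 at the 6 times in floxed livers and -0.72, -0.15, -0.71, 0.1, -0.36 and 0.45 in Cre livers, and the groups did not overlap. The difference at 20 weeks was 1.68 ± 0.21, and at 10 weeks, where 10 of 12 arrays were saturated in each channel, the clipped signals differed by 0.2 ± 0.21. Over both ages the difference was 0.94 ± 0.22 (limma, adjusted p = 0.0047), and the change with age was 1.48 ± 0.3 (limma, adjusted p = 0.012), the 1 such call among members where 10.6% of all genes were called. The 10-week side of this test compares clipped signals. Without the 20-week ZT0 Cre array 4 members and 22.9% of all genes were called here, Cyp7b1 (1.58) and, with the opposite sign, Slc27a5 (-0.73), Nr1h4 (-0.65) and Baat (-0.35), and without the 10-week ZT0 Cre array Cyp7b1 and Slc27a5 (2 members, and 11.9% of all genes). Slc27a5 is clipped too.

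The 20-week Cyp7b1 gap lay across slides. On slide 5 the floxed arrays at ZT16 and ZT20 had -1.79 and -1.32 and the Cre arrays at ZT0 and ZT4 -0.72 and -0.15, both saturated in Cy5. Without the 4 arrays of slide 6 the difference over both ages was 0.56 (limma, adjusted p = 0.15) and its change with age 1.36 (limma, adjusted p = 0.88). With slide as a fixed block the difference was 0.27 (limma, adjusted p = 0.52). With median centring in place of loess the difference was 0.74 (limma, adjusted p = 0.055) and its change with age 0.52 (limma, adjusted p = 0.29).

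The conjugation enzymes Slc27a5 and Baat were both called lower in Cre livers. Slc27a5, the bile acid coenzyme A ligase, had a fitted difference of -0.42 ± 0.12 (limma, adjusted p = 0.018), but these are clipped signals. Its Cy5 signal reached the scanner limit on 11 of 12 floxed arrays and on 6 of the 12 from Cre livers, and its Cy3 signal on 4 of 12 in each genotype, so no fold and no count of pairs is given. At 20 weeks it ran from -0.01 through 0.06 to 0.67 in floxed livers, with all 6 arrays saturated, and from -0.92 through -0.64 to 0.2 in Cre livers. The 4 arrays of slide 6, at -0.68, -0.59, -0.79 and -0.92, were the lowest, and without them the difference was -0.15 (limma, adjusted p = 0.49).

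Baat, which joins bile acids to taurine or glycine, was lower by -0.19 ± 0.07 (limma, adjusted p = 0.04), in 10 of 12 pairs. At 20 weeks floxed livers ran from 0.11 through 0.23 to 0.67 and Cre livers from -0.19 through -0.11 to 0.27. At 10 weeks the ranges were -0.38 to 0.1 and -0.43 to -0.03. The second Baat probe gave 0.04 ± 0.08 (limma, adjusted p = 0.8), the probes correlated at r = 0.18 over 24 arrays, and the call was lost in 24 of 44 alternatives, among them leaving out any one of 14 of the 24 arrays (limma, adjusted p up to 0.078). Without slide 6 it was -0.09 (limma, adjusted p = 0.55).

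**Figure D4:**
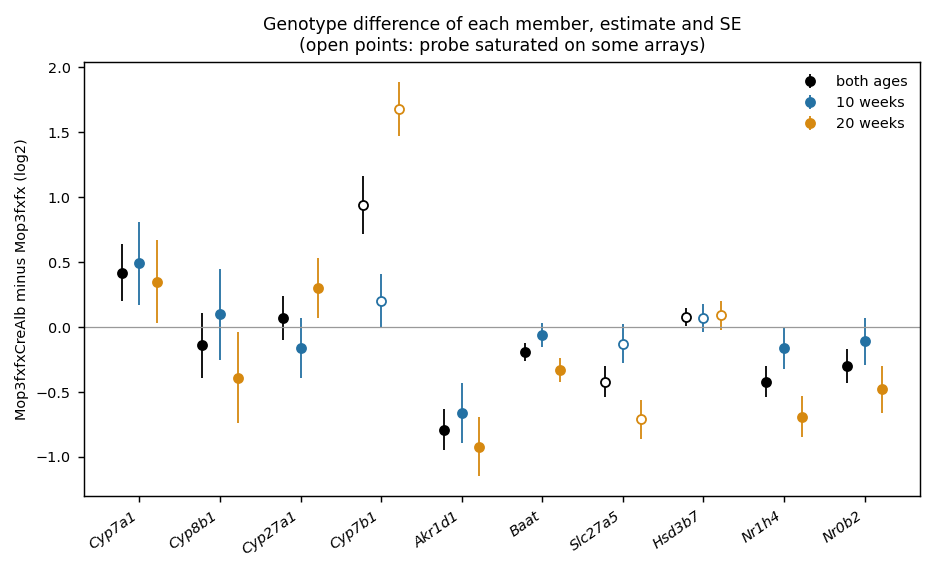
Cre minus floxed difference in log2 (y axis; sign turned under the labels' reading of the dyes) for each member, estimate and SE from limma, over both ages in black, at 10 weeks in blue and at 20 weeks in orange; open points mark probes saturated on some arrays. Akr1d1 is at -0.66 and -0.92 at 10 and 20 weeks, and Cyp7b1 at 0.2 and 1.68.

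The receptor Nr1h4 was lower in Cre livers by -0.42 ± 0.12 (limma, adjusted p = 0.017), in 10 of 12 pairs. At 20 weeks floxed livers ran from 0.59 through 0.72 to 1.11 and Cre livers from -0.35 through 0.09 to 0.63, an overlap at the ZT0 Cre array alone. At 10 weeks they ran from -0.5 through -0.04 to 0.34 and from -0.62 through -0.11 to 0.07 and overlapped widely, with a difference of -0.16 ± 0.16 against -0.69 ± 0.16 at 20 weeks (limma, interaction adjusted p = 0.12). Within slides 1, 2, 3 and 5 the difference was -0.04, -0.01, -0.34 and -0.2, and without slide 6 it was -0.17 (limma, adjusted p = 0.42).

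Nr0b2, the FXR-induced repressor, was low in the early dark phase at 10 weeks in both genotypes. Floxed livers had 0.55, 0.71, 0.47, -0.48, -0.79 and 0.57 from ZT0 to ZT20 and Cre livers 0.12, 0.14, 0.57, -0.3, -0.37 and 0.19. In floxed livers slide 2 held the high ZT4 and the low ZT12 array, and slide 3 the high ZT0 and the low ZT16 array. The profiles of both genotypes correlated at r = 0.83 at 10 and 0.84 at 20 weeks, each over 6 times, where the median gene had 0.44 and 0.31. In floxed livers the amplitude was 0.42 ± 0.13 with the peak at ZT1.8 ± 1.2 h (limma, p = 0.015, adjusted p = 0.26), and in Cre livers 0.25 ± 0.13 at ZT1.7 ± 2 h (limma, adjusted p = 0.77). In floxed livers the fitted peak of Nr0b2 thus lay near lights on and that of Cyp7a1, by its brighter probe, near lights off. In Cre livers the Cyp7a1 peak was at ZT17.5 ± 1.6 h, and the dimmer probe had a floxed amplitude of 0.18 ± 0.18. Neither gene's rhythm passed over all genes, and a link between the 2 courses was not tested.

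The mean level of Nr0b2 differed by -0.3 ± 0.13, which did not pass (limma, adjusted p = 0.11). At 20 weeks it was lower in Cre livers in 6 of 6 pairs, by -0.48 ± 0.18, and at 10 weeks in 3 of 6, by -0.11 ± 0.18. With each pair of one age and time as a block the same -0.3 passed (limma, adjusted p = 0.042). The difference passed in 5 of 44 alternatives, the others being array weights (-0.42, limma, adjusted p = 0.0042), the 20-week arrays alone (-0.48, limma, adjusted p = 0.013), without the 10-week ZT16 floxed array (-0.38, limma, adjusted p = 0.02) and without the 10-week ZT8 Cre array (-0.37, limma, adjusted p = 0.028). Within slides 1, 2, 3 and 5 it was -0.14, -0.2, -0.43 and -0.38. Without slide 6 it was -0.24 (limma, adjusted p = 0.44), and with slide as a fixed block -0.29 (limma, adjusted p = 0.34).

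No member passed for a 24 h rhythm in floxed livers (limma, smallest adjusted p = 0.12, for the saturated Hsd3b7), with 4 at an unadjusted p below 0.05 and 1.53% of all genes called. In Cre livers none passed at either level, and 0% of all genes were called although 1706 had an unadjusted p below 0.05. No member's rhythm differed between genotypes (1 at an unadjusted p below 0.05, 0.0316% of all genes called by limma), and of the 60 member and time pairs none passed limma for a genotype difference at a single time (6 at an unadjusted p below 0.05), where 0.116%, 0.137%, 0.39%, 0.527%, 0.411% and 0.121% of all genes passed at ZT0, 4, 8, 12, 16 and 20. The smallest single-time p among members was that of Akr1d1 at ZT20, -1.3 ± 0.35 (limma, p = 0.0024, adjusted p = 0.29).

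With age, 7 of 10 members were called, against 31.4% of all genes (18% higher and 13.3% lower), 4 higher at 20 weeks (Nr1h4 by 0.58 ± 0.12, Akr1d1 by 0.59 ± 0.16, Baat by 0.28 ± 0.07 and Cyp7a1 by 0.62 ± 0.22) and 3 lower (Cyp7b1 by -1.06 ± 0.22, Cyp8b1 by -0.89 ± 0.25 and Cyp27a1 by -0.69 ± 0.17), with limma adjusted p from 0.0014 to 0.043. Age and slide cannot be told apart here, and with slide as a random block 2 members and 10.6% of all genes were called. The Cyp7a1 call was lost on leaving out any one of 16 of the 24 arrays (limma, adjusted p up to 0.083). Across the 24 arrays Nr1h4 ran with Baat (r = 0.74) and Akr1d1 (r = 0.68) and against Cyp7b1 (r = -0.85), values that share these slides, and Cyp7b1 was clipped on most 10-week arrays.

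The genes whose levels ran most like Cyp7a1 over the 24 arrays were Per2 (r = 0.8), Ap3m1 (0.77), Skp2 (0.76), Idh3a (0.76) and Dmxl1 (0.69). For Nr0b2 they were Hsd17b2 (0.83), Hs1bp3 (0.81), Tbc1d9b (0.77), Sec14l2 (0.76) and Wdr24 (0.75). Per2 is a clock repressor, and its mean did not pass between genotypes (0.14 ± 0.14, limma, adjusted p = 0.51).

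Among clock factors known to act on Cyp7a1, 9 of 13 measured had a called rhythm in floxed livers and 0 of 13 in Cre livers (limma, 4 at an unadjusted p below 0.05). Across all genes 1.53% had a called rhythm in floxed and 0% in Cre livers. Dbp, a PAR bZIP activator, had a floxed amplitude of 2.18 with its peak at ZT9.4, the REV-ERB repressors Nr1d1 and Nr1d2 1.55 at ZT6.8 and 1.71 at ZT9.7, Tef 1.12 at ZT11.5 and the repressor Nfil3 0.86 at ZT21.1, with limma adjusted p from 2.9e-06 to 0.0026. The rhythms of Clock (0.54) and Bhlhe40 (0.53) were called too, beside Arntl. A difference in rhythm between genotypes was called for Arntl alone of the 13, beside 0.0316% of all genes. In mean level, Npas2 (0.86 ± 0.12) was higher in Cre livers, and Nr1d2 (-1.59 ± 0.2), Nr1d1 (-0.93 ± 0.18), Dbp (-0.88 ± 0.18), Tef (-0.41 ± 0.13) and Arntl (-0.51 ± 0.17) were lower, while Clock, Bhlhe40, Bhlhe41, Rora, Hlf and Nfil3 were not called. Other probes gave up to 0 for Nr1d1 (3 probes) and -0.07 for Tef (4 probes).

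Among other regulators of the pathway, 9 of 21 measured were lower in Cre livers and 0 higher (limma, 1 higher at an unadjusted p below 0.05), beside 12.1% and 12% of all genes, with a median difference of -0.2 against 0. Klb, the co-receptor through which intestinal FGF15 acts on hepatocytes, fell by 0.50 (SE 0.09) on the log2 scale, and its partner Fgfr4 had 0.13 ± 0.06 (limma, adjusted p = 0.12). Ppara, a fatty-acid sensing receptor, had -0.8 ± 0.15, the hepatocyte factor Hnf4a -0.41 ± 0.08 and the xenobiotic receptor Nr1i2 (PXR) -0.55 ± 0.1, each lower in at least 11 of 12 pairs (limma, adjusted p from 0.00054 to 0.00089). The 3 probes of Hnf4a ran from -0.41 to 0.07, so its value is that of the brightest one. Nr5a2 (LRH-1), the activator that SHP is known to block at Cyp7a1, had -0.06 ± 0.11, and Nr1h3 (LXR-alpha) -0.03 ± 0.07.

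Of 19 other enzymes of bile acid synthesis, 8 were lower and 2 higher, beside 12.1% and 12% of all genes, with a median of -0.08 against 0. Cyp39a1, the 24-hydroxycholesterol 7-alpha-hydroxylase, was lower in 12 of 12 pairs by -0.71 ± 0.16, and the peroxisomal import receptor Pex5 by -0.6 ± 0.12, the thioesterase Acot8 by -0.33 ± 0.08 and Cyp2a12, a bile acid hydroxylase, by -0.24 ± 0.06, each in 11 of 12 (limma, adjusted p from 0.002 to 0.0086). The 2 probes of Pex5 ran from -0.6 to 0.07, so its call rests on the brighter one, and those of Cyp39a1 from -0.71 to -0.44. Pex5 had -0.27 ± 0.15 at 10 and -0.92 ± 0.15 at 20 weeks, and Cyp39a1 -0.65 ± 0.23 and -0.76 ± 0.23. Acot8 had -0.18 ± 0.1 and -0.48 ± 0.1, and Cyp2a12 -0.16 ± 0.09 and -0.32 ± 0.09. A change with age was not called by limma for any of them. Of 15 measured transporters 3 were higher and 2 lower, beside 12% and 12.1% of all genes. Among these were Abcc3, the export pump of the blood side (0.45 ± 0.13, and 0.04 by its second probe), the canalicular pump Abcc2 (-0.26 ± 0.07) and Abcc4 (-0.41 ± 0.13). Abcb11, the bile salt export pump, was higher by 0.29 ± 0.09 with Cy5 at the scanner limit on 2 floxed arrays and 7 from Cre livers.

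Of 13 measured FXR targets other than Nr0b2, 2 were higher and 4 lower, beside 12% and 12.1% of all genes. Insig2, which holds back cholesterol synthesis, had 1.14 ± 0.11, the carboxylesterase Ces1g -0.79 ± 0.13, the phospholipid transfer protein Pltp -0.77 ± 0.15 and Fetub -0.62 ± 0.15 (limma, adjusted p from 6.9e-07 to 0.0054). Pltp had -0.26 ± 0.14 at 10 and -1.29 ± 0.14 at 20 weeks, and Fetub -0.15 ± 0.15 and -1.09 ± 0.15 (limma, interaction adjusted p = 0.012 and 0.015). A change with age was not called for Insig2 (0.9 and 1.38) or Ces1g (-0.65 and -0.94). Fetub was at the Cy5 limit on 2 floxed arrays. The part of slide in these differences, and in those of the other gene lists above and below, was not tested. Of 20 genes of cholesterol synthesis and uptake, which provide the substrate, 12 were higher in Cre livers and 1 lower, beside 12% and 12.1% of all genes. Their median difference was 0.51 against 0 over all genes. Idi1 had 0.81 ± 0.14, Msmo1 0.88 ± 0.16 and Fdps 0.65 ± 0.13, each an enzyme of the route to cholesterol and each higher in at least 11 of 12 pairs (limma, adjusted p from 0.00033 to 0.0012).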

How the data were processed

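Liver RNA of 24 pools was hybridised to 2-colour Agilent arrays with a common reference. The deposited scanner files hold intensity values per spot and the authors' log10 ratio, made with Agilent Feature Extraction 9.1.3.1 per the file headers. From the mean and background signals, normexp correction (offset 50) and loess within each array gave log2 ratios with limma 3.58.1, control and outlier spots at weight 0. Probes well above background in Cy3 on at least 4 of 24 arrays were kept, named through the RefSeq table of GRCm38.p6, and the brightest probe stood for a gene. One model held genotype, a 24 h cosine and sine for each genotype, and age, with Benjamini-Hochberg adjustment over all 18967 genes at 0.05, and further models held age by genotype and each time. Saturated spots were kept and counted. The script was tested on simulated data. The members and lists were chosen with earlier results of these data known. All 10 members are named; of other lists, the 4 called genes with the smallest p of the genotype difference, the clock regulators of Cyp7a1 (1 is not reported here), and the 5 genes most like Cyp7a1 and like Nr0b2. Fgfr4, Nr5a2 and Nr1h3 were chosen after their values were seen. The labels say that each array holds pooled mice. With no repeat of any one genotype, age and time, p-values measure the spread of arrays around the fitted model. That spread mixes differences between pools with those between slides and with lack of fit to the 24 h curve. The number of arrays limits the precision. Alternatives were the background correction, normalization, filter, probe choice, dye channel, blocks, single ages and leaving out each array; added after seeing the data were leaving out slide 6 and both 20-week ZT0 arrays.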

Additional observations from a re-analysis of the deposited data

Results flagged for a closer look

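Cyp7b1 differed between genotypes by 1.48 more at 20 than at 10 weeks on the log2 scale, Cre minus floxed (SE 0.3; limma, adjusted p = 0.012), which is a difference between ages in the same comparison. At 10 weeks 10 of 12 arrays were saturated in Cy5 and 10 of 12 in Cy3, and at 20 weeks 2 of 12 in Cy5 and 0 in Cy3. The call was lost in 4 of 41 alternatives, among them median centring in place of loess (0.52, limma, adjusted p = 0.29). The part of saturation and of slide in this difference was not tested.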

How the results depend on the processing

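Of 10 members, 5 were called for the genotype difference, beside 24% of all genes. Leaving out each of the 24 arrays in turn gave 4 to 6 (19.1% to 26.1% of all genes). In what follows, a percentage after a count is the share of all genes called. The count was 1 with median centring in place of loess (3.52%), 1 with slide (9.72%) or scan day (10.8%) as a fixed block and 2 with slide as a random block (17.4%). It was 2 from the Cy5 channel alone (19.1%) and 3 with saturated spots at weight 0 (24.3%). With those spots at weight 0 the clipped Cyp7b1, Slc27a5 and Hsd3b7 could not be tested, and Akr1d1, Baat and Nr1h4 kept their calls. From the 10-week arrays alone the count was 0 (3.4%), and without the 4 arrays of slide 6 it was 1 (8.79%). It was 6 with collection (the pair of one age and time) as a block (26.4%), with array weights (38%) and from the 20-week arrays alone (30.6%). The rhythm count in floxed livers, 0 (1.53%), was 1 with slide as a fixed (2.39%) or random block (2.8%) or with scan day as a block (3.43%). Each time the member called was Hsd3b7, whose signals are clipped. The age count, 7 (31.4%), was 2 with slide as a random block (10.6%) and 6 to 7 when single arrays were left out (26.1% to 35.7%). The count for age by genotype, 1 (10.6%), ran from 1 to 4 when single arrays were left out (5.1% to 22.9%). It was 4 without the 20-week ZT0 Cre array (22.9%) and 2 without the 10-week ZT0 Cre array (11.9%). It was 0 with slide (0.058%) or scan day (0.00527%) as a fixed block, with saturated spots at weight 0 (10.1%) and without slide 6 (0.00527%). With saturated spots at weight 0 Cyp7b1, the 1 member called in the main fit, could not be tested, so that 0 says nothing of its call. With collection as a block the count was 3 (19.7%), with array weights 4 (30.2%) and without both 20-week ZT0 arrays 4 (27.6%). Median centring gave 7 (44.5% of all genes, against 10.6%), and there the clipped Hsd3b7 reversed to -0.95 (limma, adjusted p = 0.033). These 7 were Cyp8b1, Akr1d1, Baat, Slc27a5, Hsd3b7, Nr1h4 and Nr0b2, all negative. Cyp7b1 was not among them and lost its call (0.52, limma, adjusted p = 0.29). The rhythm counts in Cre livers, for the rhythm difference and at single times stayed at 0 in all alternatives that could be fitted, leaving out single arrays included. Cyp7a1 kept its age call in 18 of 39 alternatives. The cause of these changes was not tested. With slide or scan day as a fixed block, age could not be fitted. The labels give no replicate numbers, so collection is the only pairing that was fitted. Clipped signals limit Cyp7b1, Slc27a5 and Hsd3b7.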
